A study of Mus musculus with 7 samples.

Results

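The genes of hepatic lipogenesis and triglyceride assembly described here were chosen by name, 37 in all, of which 36 were among the 14889 genes of the table. The remaining name, Agpat6, is an older symbol of Gpat4, which is present. One of the 36, Malat1, is a nuclear long noncoding RNA with no known place in the pathway and was kept only because it was listed. Of the 36, 35 passed a filter on low counts and were tested, and Mogat2 did not pass.

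Lipogenesis is the route by which the liver turns carbohydrate and acetate into fatty acids and stores them as triglyceride. Cytosolic acetyl-CoA is carboxylated by acetyl-CoA carboxylase and condensed by fatty acid synthase, with NADPH as the reductant. The chains are then placed on glycerol 3-phosphate in steps catalysed by glycerol-phosphate acyltransferases, acylglycerol-phosphate acyltransferases, lipins and diacylglycerol acyltransferases. Lipases of the droplet surface hydrolyse the stored triglyceride and release its fatty acids. In liver the genes are driven mainly by SREBP-1c, under insulin and LXR, and by ChREBP, under glucose, and many of them follow feeding and the time of day.

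The RNA came from whole livers of ApoE-/- mice of the C57BL/6 strain, aged 4 months, which lack apolipoprotein E and therefore clear remnant lipoproteins poorly. All ate a Western diet for 3 months. Injections into the peritoneum held saline for 4 of the 7 samples and 40 mg/kg PX-478 for 3, given bi-weekly, which the labels do not define further. As a compound, PX-478 is melphalan N-oxide and serves as an inhibitor of HIF-1α. The question is which hepatic transcripts differ with the compound. Both groups carry the ApoE deletion and the diet, so neither shows the pathway in a wild-type liver or on chow. Whole tissue was used, so a lower share of hepatocytes and less RNA per hepatocyte cannot be told apart.

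Libraries held 10285776 to 17257304 counted reads. Hepatocyte markers were abundant, with albumin at 16736 to 25849 CPM (a gene's reads relative to its library's total, scaled by the trimmed mean of M-values, TMM) in every library. Of 10 adipocyte markers 6 were in the table, summing to 116 to 202 CPM in saline and 104 to 164 in PX-478. Adipoq, Lep, Retn and Plin1 were not in the table, so they could not be analysed here. The saline 3 library had 1061 genes without a read, against 281 to 571 in the others. The PX-478 2 library had the lowest share of mitochondrially encoded reads, 22.4% against 27.1% to 36.7%. Over all 13693 genes tested, 1 passed an adjusted p of 0.05 (Benjamini-Hochberg, edgeR's quasi-likelihood test), which is 0.0073% of them.

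None of the 35 members passed that threshold. At an unadjusted p under 0.05, 3 members were higher and 2 lower in PX-478, against 6.97% of all genes tested (3.48% in each direction). Those higher were Acss2, Lpin2 and Srebf1, and those lower were Gpd1 and Pklr. All PX-478 libraries lay above all saline libraries for 1 member, Lpin2, and below them for 3, Gpd1, Pklr and Dgat1, against 4.3% and 4.29% of all genes tested (8.59% in either direction). The median log2 ratio between the groups (PX-478 over saline, as for every log2 fold change here) was 0.09 over the 35 members and 0.00 over all genes. With DESeq2, which called 0.606% of its genes, Gpd1 was the member called, and limma-voom called none. Without PX-478 replicate 2 the number of members at an unadjusted p under 0.05 was 9, and without saline replicate 1 it was 8. Without saline 3 and PX-478 2 together it was 9. The share of all genes at that p was counted in the main fit only, so these counts do not show a rise particular to the members.

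**Figure D1:**
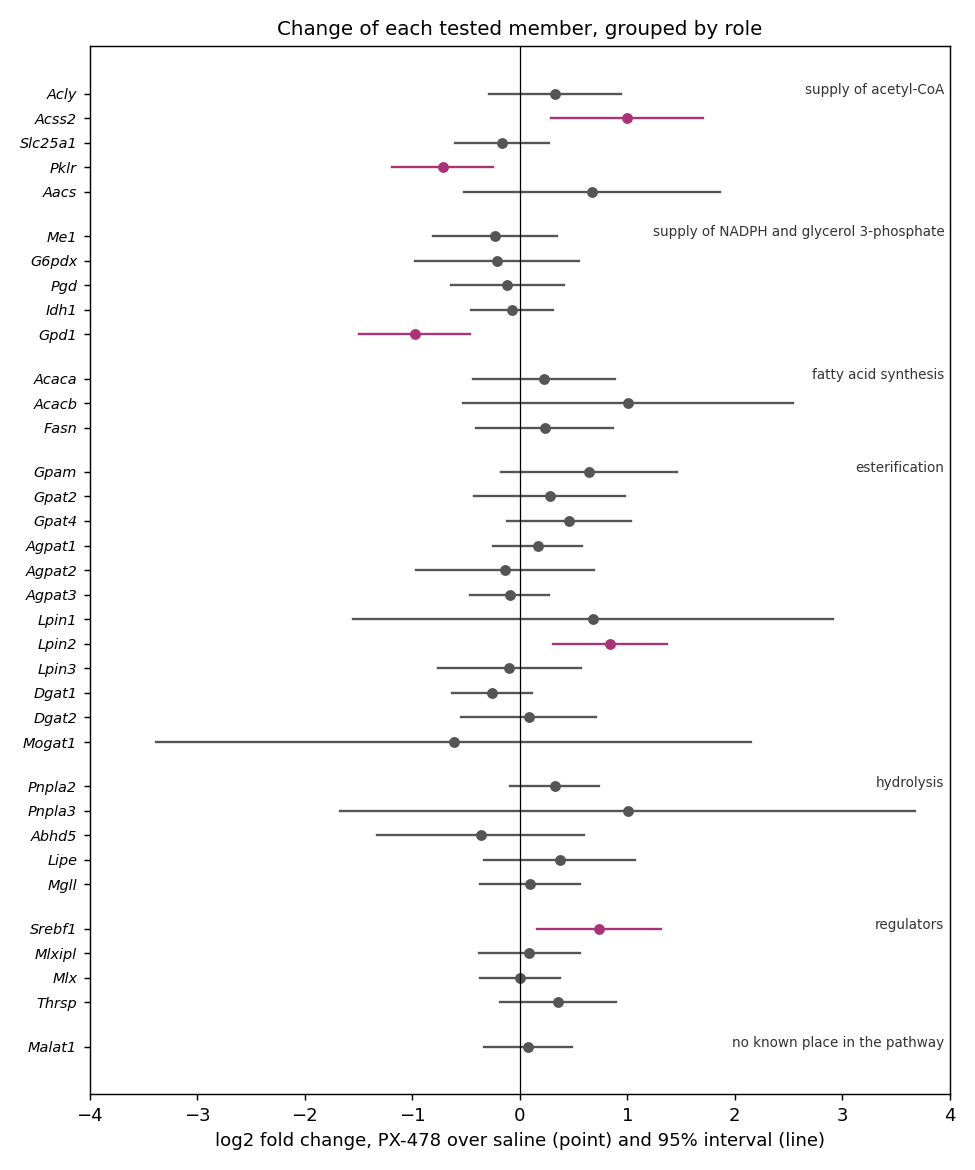
Each point is the log2 fold change (PX-478 over saline) of a tested member and each line its 95% interval, grouped by role, with the unadjusted p under 0.05 coloured. The 5 coloured intervals, Acss2, Pklr, Gpd1, Lpin2 and Srebf1, leave out 0, and those of Lpin1, Pnpla3 and Mogat1 are the widest.

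RefSeq (GRCm38.p6, which shares its coordinates with mm10) gave windows for 31 of the 36 members, and the 250 bases before each start were searched on both strands. Among the 5 members at an unadjusted p under 0.05, no window was found for Gpd1. For the other 4 the window of the most upstream start in the RefSeq promoter table is shown: Acss2 (chr2:155517793-155518042, + strand), Lpin2 (chr17:71183282-71183531, + strand), Pklr (chr3:89135892-89136141, + strand) and Srebf1 (chr11:60222582-60222831, - strand). Each is written 5′ to 3′ on the gene's strand, and capitals mark a match to the motifs named below, of which the Pklr window holds 0. The Srebf1 window lies inside the gene's span given below, and the Pklr window ends past the gene's first base. Neither is therefore the sequence before the outermost annotated end. Pklr has 2 windows and Lpin2 and Srebf1 3 each. Which start these livers used was not tested, so the window shown need not be the one used in liver.
Acss2: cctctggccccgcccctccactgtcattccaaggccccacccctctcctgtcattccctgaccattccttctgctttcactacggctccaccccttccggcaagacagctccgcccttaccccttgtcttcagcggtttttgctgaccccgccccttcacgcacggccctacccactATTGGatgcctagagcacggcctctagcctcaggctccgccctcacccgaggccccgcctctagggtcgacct
Lpin2: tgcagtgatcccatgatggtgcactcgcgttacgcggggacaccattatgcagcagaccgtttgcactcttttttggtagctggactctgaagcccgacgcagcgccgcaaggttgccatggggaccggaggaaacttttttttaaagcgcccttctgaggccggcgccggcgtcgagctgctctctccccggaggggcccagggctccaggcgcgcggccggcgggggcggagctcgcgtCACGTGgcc
Pklr: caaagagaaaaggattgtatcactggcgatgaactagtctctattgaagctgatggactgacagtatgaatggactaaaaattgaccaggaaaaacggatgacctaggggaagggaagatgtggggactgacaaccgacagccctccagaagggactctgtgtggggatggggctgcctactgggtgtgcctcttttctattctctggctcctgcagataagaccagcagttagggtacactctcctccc
Srebf1: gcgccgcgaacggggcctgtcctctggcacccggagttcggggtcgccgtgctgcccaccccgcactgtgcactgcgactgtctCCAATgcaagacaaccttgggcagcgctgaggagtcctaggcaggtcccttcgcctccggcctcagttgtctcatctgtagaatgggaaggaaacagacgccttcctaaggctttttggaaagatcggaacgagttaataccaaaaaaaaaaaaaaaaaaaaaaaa

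The motifs searched were the E-box CACGTG, which ChREBP and the clock factors share, the CCAAT box of NF-Y, the sterol regulatory element TCACNCCAC, the D-box TTATGNAA, the LXR element (AGGTCA repeated with 4 bases between), and the carbohydrate response element (CACGTG repeated with 5 bases between), whose letters include the E-box. A gene was counted where any of its windows matched. The 31 members have 45 windows and the 27025 genes 32851, so members have more windows per gene, which by itself raises their share. An E-box stood in a window of 6 of the 31 members, Lipe, Lpin2, Mgll, Mlx, Mlxipl and Slc25a1. It stood in 6.86% of all genes with a window. In Lpin2 it began 9 bases before the start. A CCAAT box stood in 17 of the 31 and in 37.5% of all genes. For Lpin2 and Pklr it lay only in the window of another start. Fasn had 3 matches, beginning at -90, -62 and -59 from its start, and those at -62 and -59 overlap in CCAATTGG. The sterol regulatory element matched in Malat1 and Mlxipl (1.22% of all genes). The D-box (3.63%) and the LXR element (0.0148%) matched in 0 of the 31, and the carbohydrate response element in 0 of the 27025 genes. The LXR pattern matched in 4 of the 27025 genes and the carbohydrate pattern in 0, so 0 among the members says nothing about them. Only exact letters were searched, so a missing match does not show that an element is absent. A match is a description of letters, not of binding.

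Of the 5 members that supply acetyl-CoA, Acss2 had the higher mean and Pklr the lower mean in PX-478 at an unadjusted p under 0.05. Acss2 (Entrez Gene 60525, chr2:155518043-155562743) makes acetyl-CoA from acetate. It stood at 45.6, 38.2, 18.1 and 29.7 CPM in the saline libraries and at 64.5, 91.8 and 40.5 CPM in the PX-478 libraries. The groups overlapped only in that saline 1 lay above PX-478 3. This gave a log2 fold change of 1.00 (95% interval 0.29 to 1.70, SE 0.32, adjusted p = 0.569). Saline 3, the library with the most genes at 0, held its lowest value and PX-478 2 its highest. Without both of these libraries the log2 fold change of Acss2 was 0.48.

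Pklr (Entrez Gene 18770, chr3:89136122-89146815) encodes the liver pyruvate kinase, the last step of glycolysis and a ChREBP target. Its levels were 318, 259, 188 and 237 CPM in the saline libraries, against 174, 152 and 131 CPM after PX-478. Every PX-478 library lay below every saline library. This gave a log2 fold change of -0.72 (95% interval -1.18 to -0.25, SE 0.22, adjusted p = 0.514). Of its exonic bases 23.4% are shared with Hcn3, an ion channel gene on the opposite strand, and the counting is not stated to use strand. Hcn3 averaged 49.7 CPM with saline, against 26.9 CPM with PX-478 (log2 fold change -0.89). Without strand, reads of the shared bases cannot be told apart between Pklr and Hcn3.

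Acly, the ATP citrate lyase that cleaves exported citrate, stood at 55.7, 43.4, 37.3 and 36.7 CPM in the saline libraries, against 71.2, 63.7 and 28.1 CPM after PX-478. The PX-478 libraries lay on both sides of the saline range, and the log2 fold change was 0.33 (SE 0.28). For Acly it was 0.091 without PX-478 replicate 1, 0.20 without PX-478 replicate 2 and 0.64 without PX-478 replicate 3. Slc25a1, the mitochondrial citrate carrier, had a log2 fold change of -0.17, with an SE of 0.20. Aacs, which activates acetoacetate for lipid synthesis, stood at 36.9 to 69.5 CPM across saline libraries, against 41.8, 156 and 38.0 CPM after PX-478. PX-478 2 alone stood above the saline range, and without it the log2 fold change of Aacs went from 0.67 to -0.31.

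All 5 members that supply NADPH or glycerol 3-phosphate had log2 fold changes below 0, between -0.98 and -0.07, and 1 of them had an unadjusted p under 0.05. That member was Gpd1 (Entrez Gene 14555, chr15:99717587-99725014), the cytosolic glycerol 3-phosphate dehydrogenase that makes the glycerol backbone from a glycolytic intermediate. Its levels were 272, 172, 181 and 136 CPM in the saline libraries, against 86.8, 93.9 and 109 CPM after PX-478. The groups did not overlap, and the mean went from 190.2 ± 58.0 CPM (SD, n = 4) to 96.6 ± 11.3 CPM (SD, n = 3). The log2 fold change of Gpd1 was -0.98 (SE 0.24, 95% interval -1.49 to -0.46, adjusted p = 0.299), the smallest p of all members and rank 60 among all genes. In DESeq2 it was -0.97 (adjusted p = 0.0226). Its unadjusted p was under 0.05 in all 21 alternatives, in which its adjusted p lay between 0.0226 and 1.00. Me1, the malic enzyme, stood at 31.3, 37.5, 32.9 and 33.6 CPM in the saline libraries, against 20.8, 45.3 and 20.5 CPM after PX-478. Of its PX-478 libraries 2 lay below the saline range and 1 above it. For Me1 the log2 fold change, -0.23 (SE 0.27), was -0.71 without PX-478 replicate 2 and -0.04 without either PX-478 replicate 1 or 3. The pentose phosphate genes G6pdx and Pgd differed by -0.21 (SE 0.35) and -0.11 (SE 0.24) on the log2 scale, and Idh1, the cytosolic isocitrate dehydrogenase, by -0.07 (SE 0.18). G6pdx has a close copy in G6pd2, so its counts are uncertain. With libraries scaled by size alone, G6pdx, Me1 and Gpd1 stayed below 0 and Pgd and Idh1 turned above it.

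**Figure D2:**
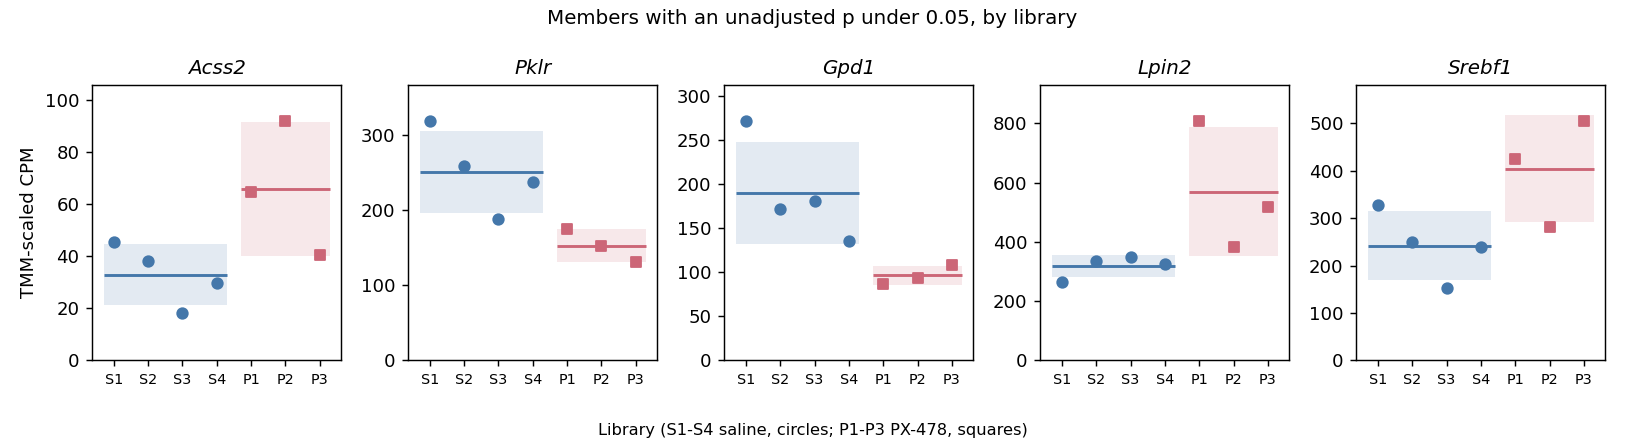
Level in TMM-scaled CPM of the 5 members with an unadjusted p under 0.05 in each library, with the group mean as a line and ± 1 SD as a band. Pklr, Gpd1 and Lpin2 do not overlap between the groups, while Acss2 and Srebf1 do.

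The fatty acid synthesis enzymes were not shown to differ. Fasn, fatty acid synthase, stood at 164, 77.9, 59.8 and 83.9 CPM in the saline libraries, against 126, 105 and 108 CPM after PX-478. Saline 1 was the highest of all 7 libraries and the other 3 saline libraries the lowest. The log2 fold change of Fasn was 0.23 (SE 0.29, 95% interval -0.41 to 0.87), 0.615 without saline replicate 1, 0.14 without saline replicate 2 and 0.06 without saline replicate 3. Acaca, the carboxylase that makes malonyl-CoA for synthesis, stood at 64.9, 56.0, 67.4 and 52.7 CPM in the saline libraries, against 105, 72.9 and 33.4 CPM after PX-478. Its saline libraries were close together and its PX-478 libraries spread 3.15-fold around them (log2 fold change 0.23, SE 0.30). Without PX-478 replicate 3 that of Acaca was 0.56, and without PX-478 replicate 1 it was -0.18. Acacb, the isoform at the mitochondrial surface whose malonyl-CoA restrains fatty acid oxidation, stood at 46.1, 51.7, 12.3 and 78.5 CPM in the saline libraries, against 129, 118 and 37.1 CPM after PX-478. PX-478 1 and PX-478 2 lay above every saline library and PX-478 3 below 3 of the 4 (log2 fold change 1.01, SE 0.65, adjusted p = 0.799).

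Among 12 tested esterification genes 7 had log2 fold changes above 0 and 5 below. Glycerol-phosphate acyltransferases open the route, and Gpam, the mitochondrial enzyme, stood at 14.5, 6.94, 4.23 and 10.5 CPM in the saline libraries, against 16.6, 17.02 and 8.87 CPM after PX-478. PX-478 1 and PX-478 2 lay above every saline library (log2 fold change 0.64, SE 0.38, adjusted p = 0.769). Without saline replicate 1 that of Gpam was 0.97, and without saline replicate 3 it was 0.40. Gpat4, its counterpart in the endoplasmic reticulum, stood at 101, 111, 132 and 140.5 CPM in the saline libraries, against 117, 257 and 124 CPM after PX-478. Only PX-478 2 lay outside the saline range, and without it the log2 fold change of Gpat4 went from 0.46 to -0.01. Gpat2 had a log2 fold change of 0.28, with an SE of 0.32. The acylglycerol-phosphate acyltransferases Agpat1, Agpat2 and Agpat3 had log2 fold changes of 0.17, -0.14 and -0.09, with SE of 0.19, 0.37 and 0.17. Those of Agpat2 and Agpat3 turned above 0 with libraries scaled by size alone.

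Lipins dephosphorylate phosphatidate to diacylglycerol, and Lpin2 (Entrez Gene 64898, chr17:71183532-71249818) was the member with the smallest p among those higher. Its levels were 266, 337, 348 and 325 CPM in the saline libraries, against 809, 383 and 518 CPM after PX-478. Every PX-478 library lay above every saline library, PX-478 2 by the least. The mean went from 319 ± 36.4 CPM (SD, n = 4) to 569.8 ± 217 CPM (SD, n = 3), with a log2 fold change of 0.84 (SE 0.24, 95% interval 0.31 to 1.37, adjusted p = 0.494). Without PX-478 replicate 1 it was 0.50. Lpin3 had a log2 fold change of -0.10 (SE 0.31), which turned above 0 with libraries scaled by size alone.

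Lpin1, the lipin that also acts with PGC-1α in the nucleus, varied widely within saline. It stood at 22.8, 20.8, 224 and 62.1 CPM in the saline libraries, against 196, 113 and 88.0 CPM after PX-478. Saline 3 was the highest of all 7 libraries and saline 1 and 2 the lowest, a 10.8-fold range within the group. The log2 fold change of Lpin1 was 0.68 (SE 0.92, adjusted p = 0.906), and 1.90 without saline replicate 3.

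The diacylglycerol acyltransferases complete the triglyceride. Dgat2, the enzyme that favours newly made fatty acids, stood at 283, 266, 319 and 243 CPM in the saline libraries, against 289.7, 152 and 441 CPM after PX-478. Its PX-478 libraries lay below, within and above the saline range (log2 fold change 0.08, SE 0.29), and its direction turned in limma-voom. Dgat1, which esterifies preformed fatty acids, stood at 42.7, 40.4, 41.5 and 39.0 CPM in the saline libraries, against 30.2, 34.2 and 38.2 CPM after PX-478. All 3 PX-478 libraries lay below the saline libraries, PX-478 3 narrowly (log2 fold change -0.26, SE 0.17, 95% interval -0.63 to 0.12, adjusted p = 0.796). The monoacylglycerol route was barely detected, with 0 to 21 reads of Mogat1 per library and 0 to 16 of Mogat2.

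**Figure D3:**
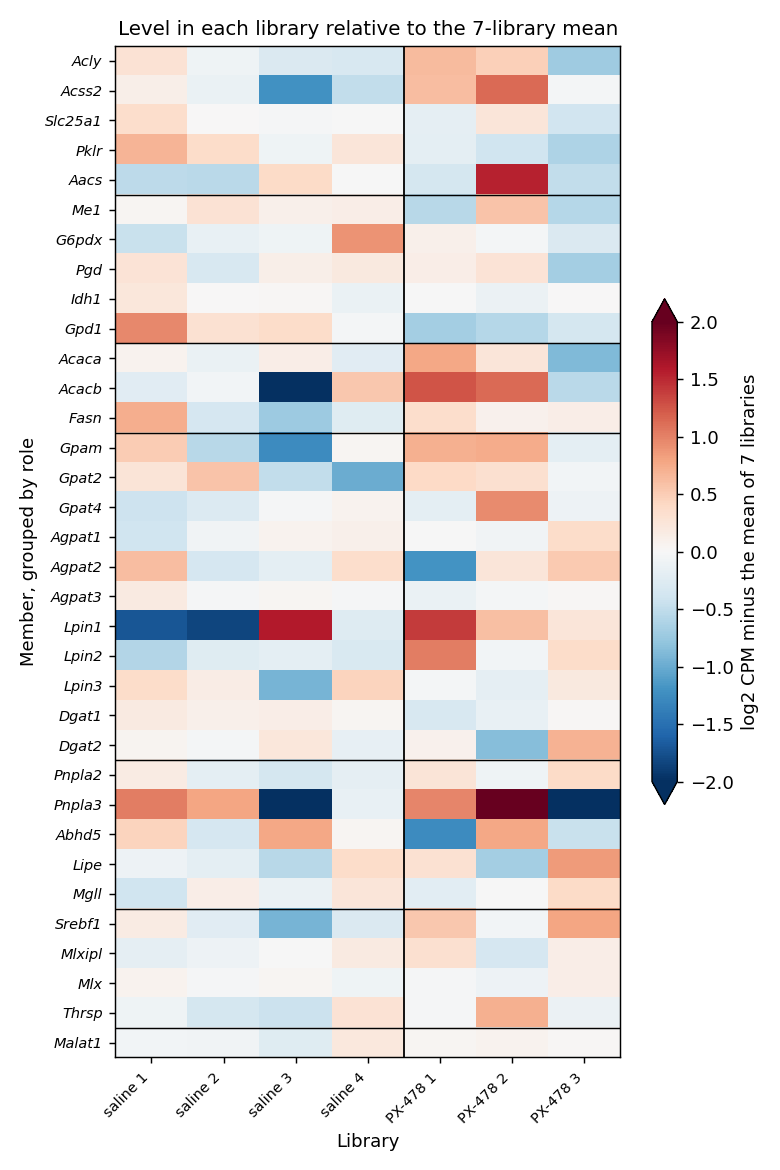
Colour gives log2 CPM of each member in each library minus its mean over the 7 libraries, for the 34 tested members with reads in every library, ordered by role and with saline left of the vertical line. Saline 3 lies below the mean in Acss2, Acacb, Gpam, Pnpla3 and Srebf1 and above it in Lpin1.

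No hydrolysis gene separated the groups. Pnpla2, the adipose triglyceride lipase that takes the first fatty acid, stood at 64.7, 50.1, 45.2 and 50.7 CPM in the saline libraries, against 68.7, 54.5 and 74.8 CPM after PX-478. Saline 1 lay among the PX-478 libraries and the other saline libraries below them (log2 fold change 0.32, SE 0.19, adjusted p = 0.769). Its coactivator Abhd5 had a log2 fold change of -0.36, with an SE of 0.43. For Abhd5 this was -1.09 without PX-478 replicate 2, -0.00042 without PX-478 replicate 1, -0.16 without saline replicate 3 and -0.21 without PX-478 replicate 3. Lipe, hormone-sensitive lipase, stood at 20.9, 19.4, 15.2 and 28.9 CPM in the saline libraries, against 27.5, 14.0 and 40.3 CPM after PX-478. PX-478 2 lay below every saline library and PX-478 3 above them all. For Lipe the log2 fold change, 0.37 (SE 0.32), was 0.68 without PX-478 replicate 2 and -0.03 without PX-478 replicate 3. Mgll, which releases the last fatty acid, had a log2 fold change of 0.09 (SE 0.22).

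Pnpla3, a droplet protein that is a SREBP-1c target and binds Abhd5, had the widest range of the members with reads in every library. It stood at 11.01, 9.37, 0.859 and 4.89 CPM in the saline libraries, against 10.6, 27.7 and 1.04 CPM after PX-478. Within saline the highest library held 12.8 times the lowest, and within PX-478 26.5 times. Saline 3 and PX-478 3 were the low libraries of their groups. The log2 fold change of Pnpla3 was 1.00 (SE 1.104, adjusted p = 0.881), and -0.16 without PX-478 replicate 2.

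Of the regulators, Srebf1 (Entrez Gene 20787, chr11:60199084-60224186), which encodes SREBP-1, stood at 328, 249, 153 and 239 CPM in the saline libraries, against 424, 282 and 505 CPM after PX-478. PX-478 1 and PX-478 3 lay above every saline library, and PX-478 2 lay below saline 1. The log2 fold change of Srebf1 was 0.74 (SE 0.27, 95% interval 0.16 to 1.31, adjusted p = 0.602). Without PX-478 replicate 3 it was 0.54. The counts do not separate its 1a and 1c transcripts, nor the precursor from the cleaved protein. Mlxipl, which encodes ChREBP, had the highest level per kilobase of exon of all members, 398 CPM per kb in saline. Its levels were 1287, 1366, 1453 and 1653 CPM in the saline libraries, against 1829.7, 1157 and 1603 CPM after PX-478, on both sides of the saline range (log2 fold change 0.09, SE 0.22). Its partner Mlx differed by 0.01 (SE 0.17) on the log2 scale, and by less than 0 in the second count column alone. Of its exonic bases 19.4% are shared with Psmc3ip on the opposite strand, which had 0 to 8 reads per library. Thrsp, the lipogenic Spot 14 protein, stood at 288, 240.1, 226 and 373 CPM in the saline libraries, against 301, 499 and 281 CPM after PX-478. PX-478 2 alone lay above the saline range (log2 fold change 0.36, SE 0.25), and without it that of Thrsp was 0.05. Malat1 stood at 615, 609.7, 542 and 739.9 CPM in the saline libraries, against 659, 674 and 649.9 CPM after PX-478, all within the saline range (log2 fold change 0.08, SE 0.19).

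The members did not share an order of libraries. Saline 3 held the lowest of the 7 values for 11 of the 35 members and the highest for 1. PX-478 2 held the highest for 9 and the lowest for 4. For fatty acid synthesis the median log2 deviation from the 7-library mean was -0.72 in saline 3 and -0.54 in PX-478 3, against 0.78 in PX-478 1. In 12 members the highest saline library was more than 2 times the lowest, and in 14 members this held within PX-478. None of these counts was made over all genes tested, so they do not show a trait particular to the members.

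**Figure D4:**
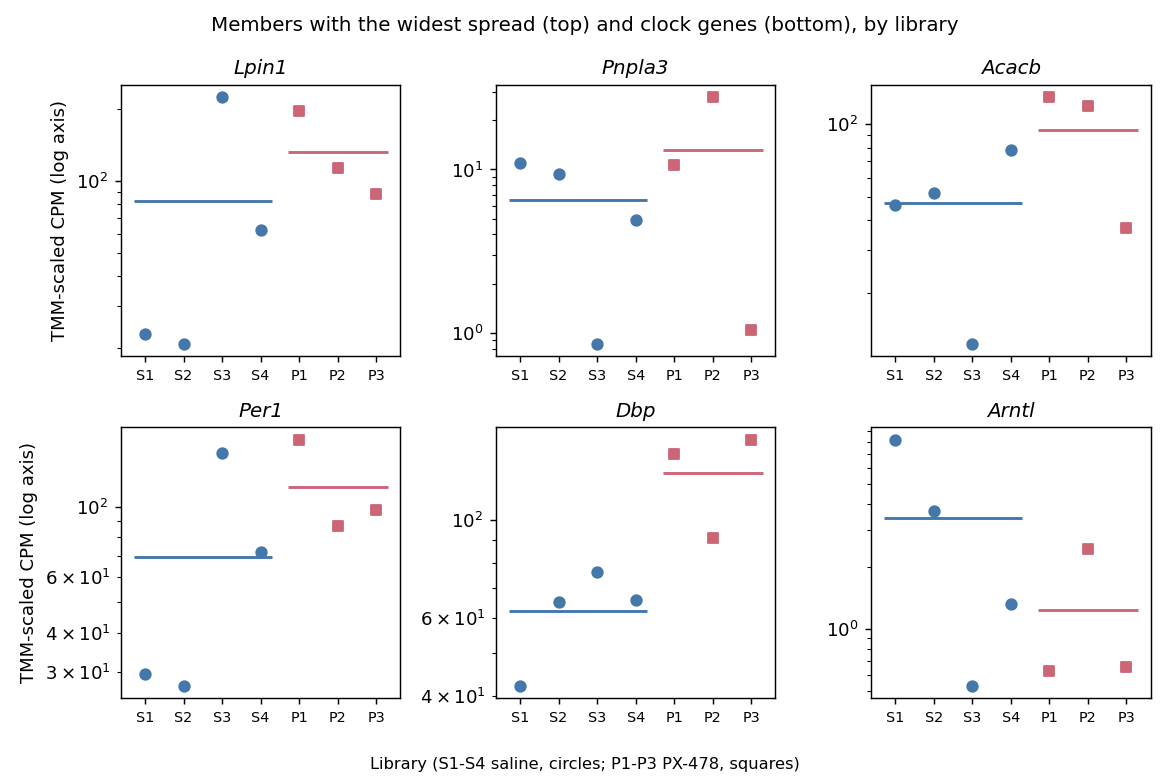
Level in TMM-scaled CPM on a log axis of Lpin1, Pnpla3 and Acacb (top) and of the clock genes Per1, Dbp and Arntl (bottom) in each library, with the group mean as a line. Saline 3 is the highest library in Lpin1 and the lowest in Pnpla3, Acacb and Arntl.

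Other genes of the pathway, in 5 lists chosen with the members, gave 93 tested genes, of which 0 passed the adjusted threshold in edgeR. At an unadjusted p under 0.05, 4 were higher and 9 lower, 14% of them against the 6.97% of all genes. Among 21 genes of carbon and NADPH supply 1 was higher and 4 lower. Idh2, the mitochondrial isocitrate dehydrogenase, stood at 18.1 to 31.4 CPM across saline libraries, against 44.0 to 55.5 CPM after PX-478, without overlap (log2 fold change 0.91, adjusted p = 0.264). Tkfc, which phosphorylates glyceraldehyde from fructose, stood at 584 to 781 CPM across saline libraries, against 401 to 494 CPM after PX-478 (log2 fold change -0.64, adjusted p = 0.531). Among 11 genes of chain completion 0 were higher and 1 lower. That was Hsd17b12, a reductase of chain elongation (log2 fold change -0.67), while Scd1, the desaturase, ran from 2869 to 5456 CPM in saline and from 881 to 4817 CPM in PX-478.

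Of 15 genes of esterification and packaging 1 was higher and 1 lower. Fitm1, which acts in droplet formation, had a log2 fold change of -1.39 (adjusted p = 0.108), and Tm6sf2, which acts in lipidation of secreted lipoproteins, one of 0.53. Of 15 genes of hydrolysis and its control 1 was higher and 2 lower. Ces1d, a carboxylesterase with triglyceride hydrolase activity and close copies in its cluster, stood at 69.0 to 221 CPM across saline libraries, against 283 to 673 CPM after PX-478 (log2 fold change 1.84, adjusted p = 0.508). Lpl, lipoprotein lipase, had one of -0.63. Of 31 regulators 1 was higher and 1 lower. Insig2, which retains the SREBP precursor in the endoplasmic reticulum, stood at 128, 62.8, 43.9 and 55.8 CPM in the saline libraries, against 24.5, 26.3 and 17.2 CPM after PX-478. The groups did not overlap (log2 fold change -1.68, SE 0.35, adjusted p = 0.264). Ppargc1b, a coactivator of SREBP-1, stood at 0.793 to 8.14 CPM across saline libraries, against 14.5 to 16.5 CPM after PX-478 (log2 fold change 1.40, adjusted p = 0.677).

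Time of day, feeding state and other cell types move lipogenic genes, so their markers are given beside the members. Of 16 tested clock genes 5 were higher and 1 lower at an unadjusted p under 0.05, 37.5% against 6.97% of all genes, and 0 passed the adjusted threshold. Their summed level was 773 to 1118 CPM across saline libraries, against 1338 to 1888 CPM after PX-478. Tef and Dbp, output factors of the clock, had log2 fold changes of 1.196 and 1.04, with all PX-478 libraries above all saline libraries. The clock genes did not share an order within saline: the highest saline library was saline 3 in Per1 (148 CPM) and saline 4 in Per2 (204 CPM) and Ciart (33.6 CPM). Arntl, which encodes BMAL1, ran from 0.529 to 8.21 CPM within saline, highest in saline 1. Of 12 fasting-induced genes 1 was higher and 0 lower, 8.33% against the same 6.97%, and their summed level overlapped, at 3520.1 to 4483 CPM across saline libraries, against 3601 to 4836 CPM after PX-478. The 2 with the smallest p were Acot1, at a log2 fold change of 1.07, and G6pc, the last enzyme of glucose output, at -1.78 (adjusted p = 0.728), from 33.5 to 371 CPM within saline. Of the 5 tested adipocyte markers Cfd fell, from 13.3 to 40.4 CPM in saline to 0.261 to 0.756 CPM in PX-478, a log2 fold change of -5.89 (adjusted p = 0.000663), the 1 gene that passed in edgeR. The other 4 tested adipocyte markers overlapped between the groups, Fabp4 and Plin4 at -0.42 and -0.83 and Adrb3 and Car3 at 0.62 and 0.04 on the log2 scale. All 8 hepatocyte markers and all 8 Kupffer cell markers had log2 fold changes below 0, with 1 and 2 of them at an unadjusted p under 0.05 (12.5% and 25%, against 3.48% of all genes in that direction). Summed levels were 36082 to 51938 CPM across saline libraries, against 32174 to 39315 CPM after PX-478 for hepatocytes, and 243 to 518 CPM and 247 to 361 CPM for Kupffer cells. Endothelial markers summed to 106 to 156 CPM across saline libraries, against 151 to 180.1 CPM after PX-478, stellate markers to 110.2 to 129 and 101 to 202 CPM, and cholangiocyte markers to 74.9 to 110 and 78.6 to 132 CPM. Leukocyte markers summed to 19.5 to 24.8 and 12.3 to 25.6 CPM. Log2 fold changes were above 0 for 5 of 7 endothelial, 6 of 7 stellate and 2 of 5 cholangiocyte markers. All 4 tested leukocyte markers had log2 fold changes below 0. At an unadjusted p under 0.05 in edgeR, 2 endothelial markers and 1 stellate marker were higher. These are 28.6% and 14.3%, against 3.48% of all genes in that direction. Of 6 pancreatic and 4 muscle markers 1 each was in the table, at most 17.1 CPM and 1.76 CPM. No marker in the table was at 0 in every library. The part of clock phase, feeding and cell mixture in the members' values was not tested.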

How the data were processed

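Liver RNA of 7 samples was sequenced from standard Illumina libraries, per the labels. The authors deposited raw counts per gene. featureCounts, edgeR and the build mm10 are named without versions in the submitters' processing notes, and an aligner is not stated in these sources. Each sample has 2 count columns, whose chi-square per gene was 0.291 to 0.765, against 49.1 to 145 between libraries of a group, so both were counted as 1 sample, as their rounded mean. Samples were grouped by title. The labels do not say that each library is a separate animal, so the p-values cover only the spread among the samples, which may be technical.

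Genes passing filterByExpr (13693) were scaled by TMM and tested with edgeR 4.0.16 (glmQLFit and glmQLFTest, robust, no covariates), with Benjamini-Hochberg adjustment over all genes tested and a threshold of 0.05. Standard errors were derived from the fold change and its F statistic. The members, lists, classes and tests were chosen with earlier results of these data known. Every member is accounted for. Values per library are given for 12 members fixed by name, the 2 with the smallest p in each class and those with an unadjusted p under 0.05, and Aacs, Dgat1, Lpin1, Slc25a1, Hcn3, Psmc3ip, Per1, Per2, Ciart, Arntl, Cfd, Fabp4, Plin4, Adrb3 and Car3 were added after their values were seen. Of each other pathway list and of the fasting and clock lists the 2 genes with the smallest p are named. Exon lengths came from GENCODE M21 and positions and promoters from RefSeq GRCm38.p6, in which 14492 of the Entrez IDs were found. The test was first tested on simulated data. At the adjusted threshold it called 33% of genes given a 2-fold change and 74% of those given a 4-fold change. Of genes given no change it called 0.0531%. A member without a call can therefore still differ. The floor of 3 reads equals 0.188 to 0.26 CPM, for counting error only. Alternatives were DESeq2 1.42.0, limma 3.58.1 (voom), other scalings and filters, each count column, no mitochondrial genes, a replicate block and leaving out each library. Leaving out saline 3 and PX-478 2 together was added after seeing the data.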

Additional observations from a re-analysis of the deposited data

Results flagged for a closer look

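Slc25a1, the mitochondrial citrate carrier, stood at 158 CPM in saline 1 and at 121 to 124 CPM in the other 3 saline libraries. The gap of saline 1 to the nearest library was 0.929 of the whole range of the group, above Dixon's 95% limit for 4 libraries. Such a gap arises by chance in about 1 of 20 groups, and 35 members were examined. Its PX-478 libraries stood at 109.5, 147 and 94.4 CPM.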

How the results depend on the processing

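Over all genes 1 was called in edgeR, 5 with libraries scaled by size alone, 83 with DESeq2, 0 with limma-voom, 3 with the replicate block, 15 without saline 3 and PX-478 2, and 1 to 5 with a library left out, 5 without saline 4, PX-478 2 or PX-478 3. Members called numbered 0 in edgeR and in every alternative but DESeq2, where it was 1, Gpd1. Members at an unadjusted p under 0.05 numbered 5, 7 with the replicate block, 5 to 9 with a library left out, and 9 without saline 3 and PX-478 2. The share of all genes at that p was not counted in these alternatives. The members' median log2 fold change of 0.09 was 0.23 with libraries scaled by size alone, which moved the median of all genes from 0.00 to 0.15, and 0.05 to 0.17 with a library left out. Replicate numbers did not pair the libraries: same-numbered deviations correlated at -0.02, -0.07 and -0.0017, and 0 of 3 correlated best with their own number. Of 732 values for single members under 21 alternatives, 34 reversed and 17 members had none that did. Log2 fold changes that reversed without saline 3 and PX-478 2 were -0.088 (Aacs), -0.00022 (Malat1), -0.53 (Pnpla3), -0.045 (Thrsp). Log2 fold changes that reversed with library size only were 0.012 (Agpat2), 0.054 (Agpat3), 0.068 (Idh1), 0.018 (Lpin3), 0.091 (Pgd), 0.025 (Slc25a1). Log2 fold changes that reversed with limma-voom were -0.042 (Dgat2). Log2 fold changes that reversed with replicate block were -0.10 (Dgat2), 0.16 (G6pdx), 0.12 (Lpin3), -0.027 (Mlx). Log2 fold changes that reversed with second column were -0.00069 (Mlx). With 1 library left out, the ranges of those that reversed were -0.31 to 1.00 (Aacs), -0.18 to 0.56 (Acaca), -0.47 to 0.23 (Agpat2), -0.33 to 0.39 (Dgat2), -0.37 to 0.16 (G6pdx), -0.0065 to 0.66 (Gpat4), -0.025 to 0.68 (Lipe), -0.32 to 0.040 (Lpin3), -0.091 to 0.21 (Mgll), -0.062 to 0.051 (Mlx), -0.061 to 0.25 (Mlxipl), -0.30 to 0.12 (Pgd), -0.16 to 1.55 (Pnpla3). Where a single library moved these values, the cause was not tested. Gpd1, Pklr and Lpin2 had an unadjusted p under 0.05 in 21 of 21 alternatives, Srebf1 in 20 (not without PX-478 3) and Acss2 in 19 (not without PX-478 2, with or without saline 3). Depth limits Mogat1, tested in 18 alternatives, and Mogat2, with 0 reads in 4 of 7 libraries and no test.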
